A study of Bos taurus with 30 samples.

Results

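The genes described here are 10 transcription factor genes that cells switch on within a short time of a stimulus: the AP-1 genes FOS (ENSBTAG00000004322), FOSB, FOSL1, JUN, JUNB and ATF3, the zinc finger gene EGR1, and the nuclear receptor genes NR4A1, NR4A2 and NR4A3. They are 10 of the 27607 genes counted in bovine endometrial cells grown in a microfluidic device, an endometrium on a chip. The set was taken by gene name after it had been chosen by a measured value, the lower level of NR4A2 in epithelial cells with 10 ng/mL insulin than with vehicle, so the values of that contrast are given as a description without a test. RNA was sequenced from 30 libraries in 10 groups of 3 replicates. In the glucose experiment, epithelial and stromal cells received 5 mM or 50 mM glucose (12 libraries). In the insulin experiment, both cell types received an acetic acid vehicle, 1 ng/mL or 10 ng/mL insulin in medium with 5 mM glucose (18 libraries). All groups shared the same device: primary cells from uteri of nonpregnant cows early in the luteal phase, with epithelial cells in the upper chamber, stromal cells under a porous membrane, 72 hours of flow and removal of the cells with trypsin before RNA was extracted. The labels give 3 biological replicates per group and do not say which cow gave which replicate. Cultures exposed to a lower glucose concentration were not analysed here.

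Immediate early genes need no new protein synthesis to be transcribed. Growth factors, stress, calcium and cyclic AMP reach them through ERK, p38 and CREB signalling, and their transcripts usually last only briefly. FOS and JUN proteins pair to form AP-1, a factor that drives genes of proliferation, matrix remodelling and inflammation. EGR1 answers growth factor and hormone signals, and ATF3 responds to cellular stress. The NR4A proteins are orphan nuclear receptors that act without a known hormone ligand, and NR4A receptors take part in decidualization and steroidogenesis in reproductive tissues.

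Library totals were 13493503 to 16647701 counted reads for glucose and 8826470 to 13214728 for insulin. Levels are given as CPM, the count divided by the library total and multiplied by 1000000. All 10 genes passed the low-count filter in every comparison, with 9 reads as their lowest count in any library (NR4A3, epithelial cells). The cell type labels held for most libraries. Summed over 20 epithelial markers, the level was 8865 to 17304 CPM in epithelial libraries, with no marker at 0, against 20.0 to 374 CPM in stromal libraries of the insulin experiment, where up to 11 of the 20 markers were at 0. Stromal libraries of the glucose experiment were less uniform. In the library labelled stromal, 50 mM glucose, replicate 3, the median epithelial marker stood at 63.7% of its level in epithelial libraries of the same experiment, compared with 0.0185% to 14.1% in the other 5 stromal glucose libraries. The epithelial 5 mM glucose library of replicate 2 also stood apart, with the summed 17304 CPM of epithelial markers, and the main fold changes that rest on these libraries are also given without the replicate concerned. Stromal markers reached 1.38% to 12.8% of their stromal level in epithelial libraries. Immune cell markers summed to at most 16.8 CPM and endothelial markers to at most 109 CPM in any library. Only 4 of 8 immune cell and 7 of 8 endothelial markers had a named gene, and the sums cover those alone. In bulk RNA, a larger share of cells that transcribe a gene and more RNA per cell cannot be told apart.

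All 10 genes were detected in every library after 72 hours of flow. FOS was among the steadiest. It ranged from 298 to 523 CPM in epithelial and from 314 to 479.6 CPM in stromal cells of the glucose experiment, and from 384 to 535 CPM and from 360.3 to 472 CPM in the insulin experiment. The cell types overlapped in both experiments. Its highest level was 1.31 to 1.76 times its lowest within a cell type and experiment, whereas FOSB spanned 11.3-fold in stromal glucose libraries and NR4A1 spanned 8.46-fold in epithelial insulin libraries. The SD of log2(CPM + 1) over the 9 epithelial insulin libraries was 0.93 for NR4A1 and 0.78 for NR4A3, larger than in 98.1% and 96.6% of 13363 genes with a mean of at least 1 CPM. For JUNB in the 9 stromal insulin libraries it was 0.095, larger than in 13% of those genes. The 10 genes therefore did not vary as a block, as the plot of levels in all libraries shows.

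**Figure D1:**
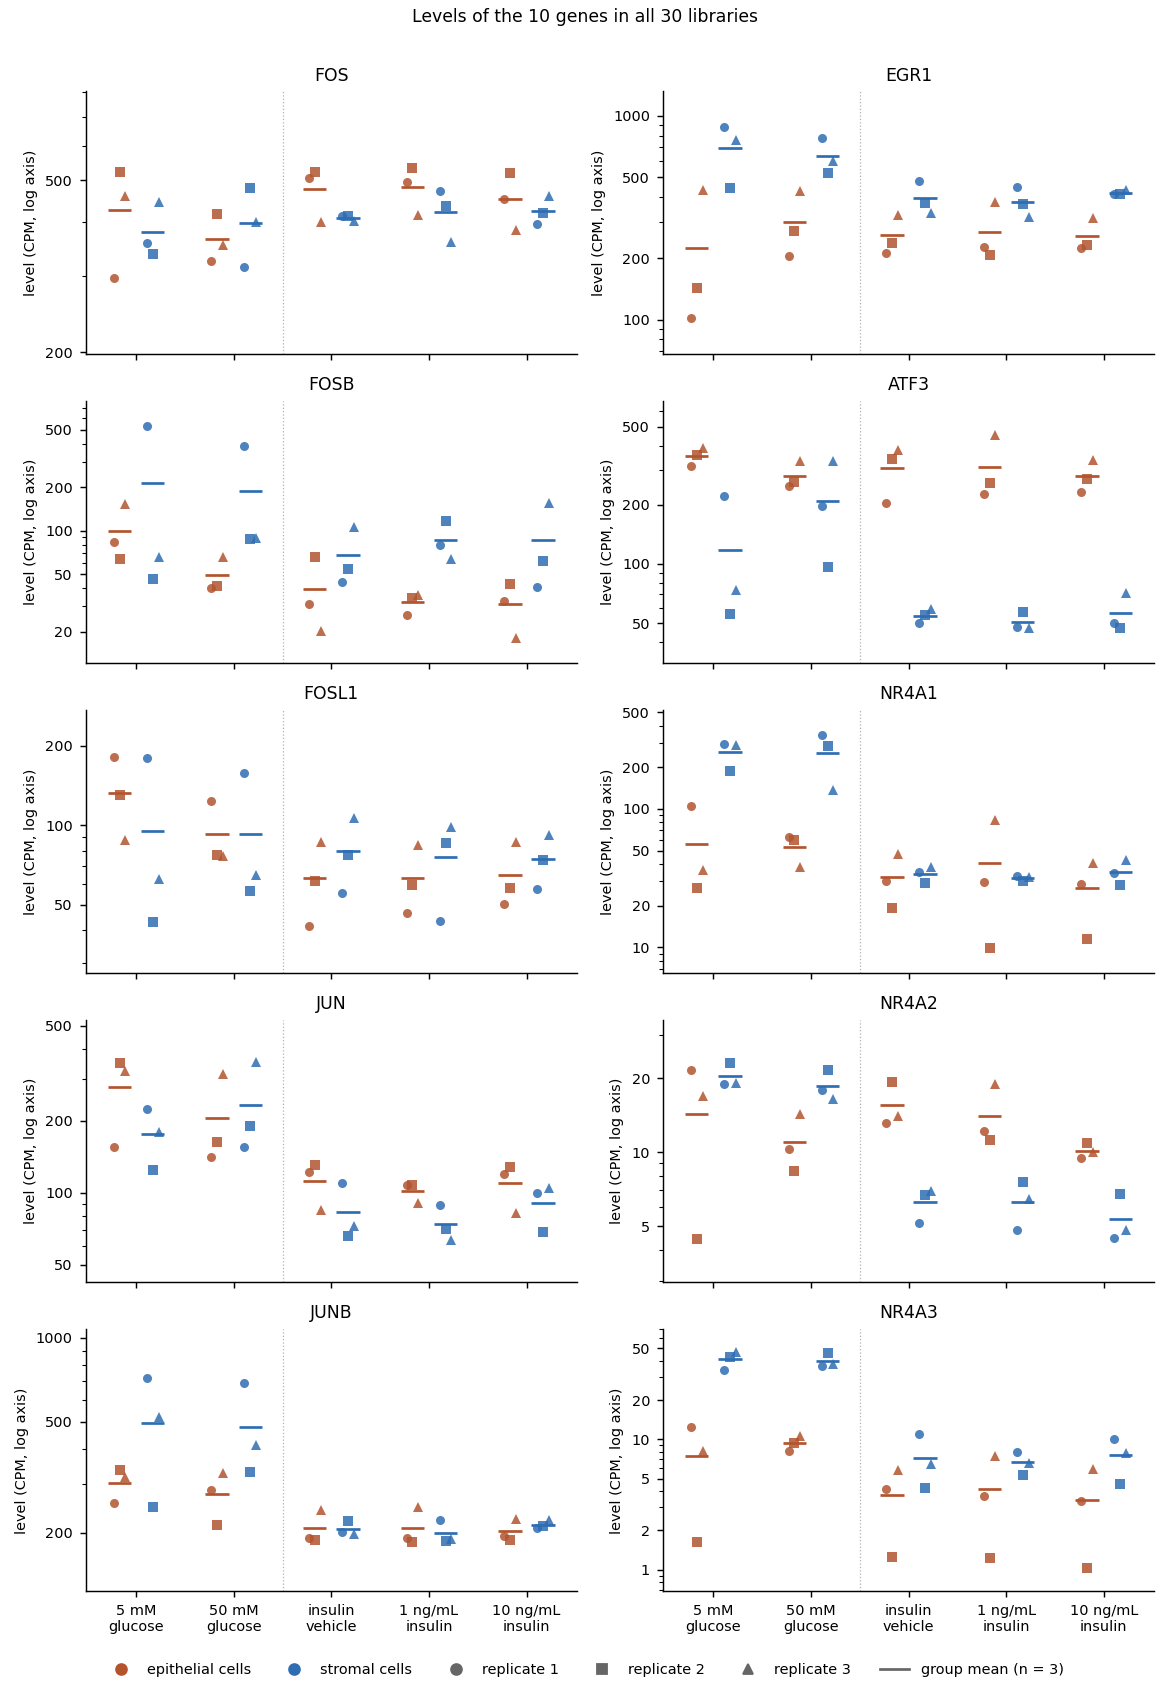
Level of each gene (CPM, log axis) in all 30 libraries, by condition, with epithelial cells in orange and stromal cells in blue, marker shapes for replicates 1 to 3 and a line at each group mean. FOS stayed between 298 and 535 CPM throughout, ATF3 was higher in every epithelial than in every stromal library of the insulin experiment, and NR4A1 and NR4A3 were higher in every stromal than in every epithelial library of the glucose experiment.

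The first comparison was between the cell types, within each of the 5 conditions. Log2 fold changes are epithelial minus stromal, and p-values come from the quasi-likelihood test of edgeR. The Benjamini-Hochberg method over all genes tested gave the adjusted ones. The standard error (SE) was derived from that test, as the absolute log2 fold change divided by the square root of its F statistic. A gene was called at an adjusted p under 0.05 and a log2 fold change above 0.1 or below -0.1. Of the 10 genes, 5 were called with vehicle, 4 with 1 ng/mL and 4 with 10 ng/mL insulin, 3 at 5 mM and 2 at 50 mM glucose. Higher in epithelial cells were 2, 3 and 2 of them in the insulin groups and 0 at either glucose concentration. Over all genes, 27.8%, 29.6% and 27.1% were called higher in epithelial cells in the vehicle, 1 ng/mL and 10 ng/mL groups, and 10.5% and 6.39% at 5 mM and 50 mM glucose. Higher in stromal cells were 3, 1 and 2 of the 10 in the insulin groups and 3 and 2 in the glucose groups, against 27.3%, 29.3% and 27.3% and against 10.6% and 10.9% of all genes. The numbers of called genes were thus near the share of all genes in the insulin experiment. Those of the vehicle and 10 ng/mL groups include NR4A2, whose epithelial levels there chose the set. DESeq2 called 4 more differences at 50 mM glucose, with FOSB, JUNB, EGR1 and NR4A2 higher in stromal cells (adjusted p = 0.00568, 0.0140, 0.00227 and 0.0266), and ATF3 as higher in epithelial cells at 5 mM (adjusted p = 0.00812). The shares above are those of edgeR. The share of all genes called by DESeq2 is not given here, so nothing about the set is read from its counts.

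ATF3, the stress-responsive partner of JUN proteins, was the gene that separated the cell types most in the insulin experiment. With vehicle, replicates 1 to 3 had 205, 340.4 and 379 CPM in epithelial cells and 50.0, 55.1 and 58.7 CPM in stromal cells. With 1 ng/mL insulin, they had 228, 257 and 450.4 CPM against 47.9, 57.1 and 47.0 CPM. With 10 ng/mL, they had 233, 271 and 339 CPM against 50.2, 47.2 and 71.0 CPM. No epithelial library was as low as any stromal library. ATF3 was 5.17-fold higher in epithelial cells with vehicle (log2 2.37, SE 0.140, adjusted p = 0.000961), 5.46-fold with 1 ng/mL (log2 2.45, SE 0.227, adjusted p = 0.000564) and 4.67-fold with 10 ng/mL (log2 2.22, SE 0.12, adjusted p = 0.00124). The call held when any 1 replicate was left out.

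In the glucose experiment, the stromal ATF3 level was not uniform. Epithelial cells had 315, 358 and 389 CPM at 5 mM and 248, 261 and 335 CPM at 50 mM, close to their levels in the insulin experiment. Stromal cells had 223, 55.6 and 73.9 CPM at 5 mM and 197, 96.3 and 336 CPM at 50 mM. Replicate 1 was thus high at both concentrations and replicate 3 at 50 mM alone, the library with epithelial markers at 63.7% of their epithelial level. The part of those cells in the ATF3 level was not tested. At 5 mM, the log2 fold change of ATF3 was 1.67 (SE 0.550, unadjusted p = 0.0228), which did not pass after adjustment (adjusted p = 0.0881). Leaving out replicate 1 gave 2.35 with an adjusted p = 0.000888, and leaving out replicate 2 gave 1.20 with an adjusted p = 0.201. At 50 mM the difference was 0.43 (SE 0.321, adjusted p = 0.389), and 0.70 (SE 0.351, adjusted p = 0.211) without replicate 3.

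EGR1, a zinc finger activator induced by growth factors, went the other way. With vehicle, it had 212, 239 and 325 CPM in epithelial and 481, 373 and 334 CPM in stromal cells. With 10 ng/mL insulin, it had 225, 232 and 313 CPM in epithelial and 415, 411 and 432 CPM in stromal cells. The groups did not overlap at either of these concentrations. EGR1 was 1.63-fold higher in stromal cells with vehicle (log2 -0.70, SE 0.202, adjusted p = 0.0381) and 1.78-fold higher with 10 ng/mL (log2 -0.83, SE 0.122, adjusted p = 0.00573). With 1 ng/mL, epithelial replicate 3 had 376 CPM, above stromal replicates 2 and 3 (367 and 318 CPM), and the log2 fold change of -0.63 (SE 0.238, unadjusted p = 0.0412) missed the adjusted threshold at 0.0662. Without replicate 3 it was -0.98 (adjusted p = 0.00500). The vehicle call was lost without replicate 1 (-0.50, adjusted p = 0.138) and without replicate 2 (-0.67, adjusted p = 0.0952).

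The gap in EGR1 was wider in the glucose experiment, where every stromal library was above every epithelial library. At 5 mM, epithelial cells had 102, 143 and 429.9 CPM and stromal cells 877, 444 and 762 CPM. At 50 mM, epithelial cells had 205, 271 and 427 CPM and stromal cells 775, 526 and 597 CPM. The log2 fold change was -2.05 (SE 0.539, adjusted p = 0.0440) at 5 mM and -1.27 (SE 0.350, adjusted p = 0.0624) at 50 mM. The 5 mM call was lost without replicate 1 (-1.42, adjusted p = 0.0809) and without replicate 2 (-2.22, adjusted p = 0.0899), and the 50 mM difference was called without replicate 3 (-1.62, adjusted p = 0.0268).

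Within the FOS and JUN families, few differences between the cell types passed the test. The calls of FOSL1 and JUN were lost in all or some of the fits with 1 replicate left out. FOSB, a FOS protein that also pairs with JUN proteins, was 2.86-fold higher in stromal cells with 1 ng/mL insulin (log2 -1.51, SE 0.183, adjusted p = 0.00135), where epithelial cells had 26.0, 34.3 and 35.6 CPM and stromal cells 79.9, 116 and 63.6 CPM. That call held without any 1 replicate. FOSB had -0.90 (SE 0.583, adjusted p = 0.247) with vehicle and -1.37 (SE 0.658, adjusted p = 0.142) with 10 ng/mL, and at 50 mM glucose -1.69 (SE 0.627, unadjusted p = 0.0399, adjusted p = 0.119), or -2.36 (adjusted p = 0.0532) without replicate 3. FOSL1, a later FOS relative that follows sustained ERK signalling, was lower in epithelial cells with vehicle (-0.42, SE 0.0905, adjusted p = 0.0157) in 3 of 3 pairs, although the groups overlapped, and the adjusted p was 0.0501 to 0.0768 with any 1 replicate left out and 0.273 without the replicate number as a block. With 10 ng/mL, FOSL1 had -0.32 (SE 0.109, unadjusted p = 0.0362), which did not pass after adjustment (adjusted p = 0.0630).

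JUN, the principal AP-1 partner of FOS, was 1.28-fold higher in epithelial cells with 1 ng/mL insulin (log2 0.36, SE 0.108, adjusted p = 0.0334), at 107, 108 and 90.9 CPM against 89.1, 70.3 and 63.5 CPM. The call was lost without replicate 2 (adjusted p = 0.184) and without replicate 3 (adjusted p = 0.101), with DESeq2 (adjusted p = 0.0586) and without the block (adjusted p = 0.0802). JUNB, a JUN relative that often restrains JUN, had log2 fold changes of -0.19 to -0.06 between the cell types in the insulin groups, none called. At 50 mM glucose it had 286, 214 and 327 CPM in epithelial and 690.3, 329.9 and 413 CPM in stromal cells. Its groups did not overlap there, at a log2 fold change of -0.89 (SE 0.267, unadjusted p = 0.0181, adjusted p = 0.0746), which became -1.13 (adjusted p = 0.0385) without replicate 3. FOS itself was not called in any of the 5 conditions, with log2 fold changes of -0.26 to 0.13.

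Of the 10 genes, NR4A1 and NR4A3 had the largest fold changes between the cell types at both glucose concentrations. NR4A1, the NR4A receptor also known as Nur77, had 105, 26.7 and 36.1 CPM in epithelial and 295, 187 and 289 CPM in stromal cells at 5 mM glucose. At 50 mM, it had 63.0, 59.5 and 37.7 CPM in epithelial and 344, 283 and 138 CPM in stromal cells. The lowest stromal library, replicate 3 at 50 mM, was the one with epithelial markers at 63.7%, and it was still above the highest epithelial library. NR4A1 was 6.30-fold higher in stromal cells at 5 mM (log2 -2.65, SE 0.425, adjusted p = 0.0105) and 5.07-fold higher at 50 mM (log2 -2.34, SE 0.212, adjusted p = 0.00306).

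NR4A3, also known as NOR1, had the same order. At 5 mM glucose it had 12.4, 1.63 and 8.15 CPM in epithelial and 34.1, 42.9 and 46.7 CPM in stromal cells, and at 50 mM it had 8.13, 9.43 and 10.7 CPM against 36.7, 46.1 and 37.7 CPM. The groups were apart at both concentrations, and epithelial replicate 2 at 5 mM was the lowest library. NR4A3 was 8.20-fold higher in stromal cells at 5 mM (log2 -3.04, SE 0.660, adjusted p = 0.0244) and 4.74-fold higher at 50 mM (log2 -2.24, SE 0.192, adjusted p = 0.00271). Without replicate 2, the 5 mM value of NR4A3 was -2.24 (adjusted p = 0.0221) and that of NR4A1 was -2.50 (adjusted p = 0.0311). Without replicate 3, the 50 mM values were -2.41 (adjusted p = 0.00336) and -2.53 (adjusted p = 0.00379). The 50 mM calls were lost without replicate 1, at -2.14 (adjusted p = 0.0573) for NR4A3 and -2.15 (adjusted p = 0.0540) for NR4A1, in a fit that called 0% of all genes.

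In the insulin experiment, the stromal excess of NR4A3 was smaller and that of NR4A1 was not called. NR4A3 was 2.16-fold higher in stromal cells with vehicle (log2 -1.11, SE 0.342, adjusted p = 0.0458) and 2.60-fold higher with 10 ng/mL (log2 -1.38, SE 0.363, adjusted p = 0.0302), with overlapping groups. With 1 ng/mL it had -1.0 (SE 0.423, adjusted p = 0.0909). The vehicle and 10 ng/mL calls of NR4A3 were lost without replicate 1 (adjusted p = 0.201 and 0.113) and without replicate 2 (adjusted p = 0.113 and 0.0817). They were also lost when the replicate number was not used as a block (adjusted p = 0.143 and 0.0956). NR4A1 had -0.23 (SE 0.183), -0.17 (SE 0.532) and -0.62 (SE 0.271) with vehicle, 1 ng/mL and 10 ng/mL, none called.

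NR4A2, also known as Nurr1, was the NR4A gene that was higher in epithelial cells of the insulin experiment. Its epithelial libraries ranged from 9.47 to 19.3 CPM (median 12.1, n = 9) and its stromal libraries from 4.46 to 7.55 CPM (median 6.46, n = 9), with no overlap. NR4A2 was 2.33-fold higher in epithelial cells with vehicle (log2 1.22, SE 0.192, adjusted p = 0.00639), 2.05-fold with 1 ng/mL (log2 1.03, SE 0.230, adjusted p = 0.0120) and 1.78-fold with 10 ng/mL (log2 0.83, SE 0.195, adjusted p = 0.0216). The vehicle call held without any 1 replicate. Without replicate 1 or 3, the adjusted p with 1 ng/mL was 0.0713 and 0.0537. With 10 ng/mL, the adjusted p was 0.0548 to 0.0929 with any 1 replicate left out. The vehicle and 10 ng/mL comparisons use the epithelial libraries whose contrast chose the gene set. That choice favours a high vehicle and a low 10 ng/mL level of NR4A2. Both fold changes and their p-values are therefore a description and no independent evidence on NR4A2.

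The direction was not shared by the glucose experiment. There NR4A2 had 21.5, 4.45 and 16.9 CPM in epithelial and 18.9, 23.0 and 19.2 CPM in stromal cells at 5 mM, and 10.3, 8.41 and 14.3 CPM against 18.0, 21.5 and 16.5 CPM at 50 mM. At 50 mM every stromal library was above every epithelial library. The log2 fold changes were -0.96 (SE 0.558, adjusted p = 0.301) at 5 mM and -0.94 (SE 0.272, unadjusted p = 0.0162, adjusted p = 0.0696) at 50 mM. Without replicate 2 the 5 mM value was -0.25 (adjusted p = 0.506), and without replicate 3 the 50 mM value was -1.26 (adjusted p = 0.0164).

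**Figure D2:**
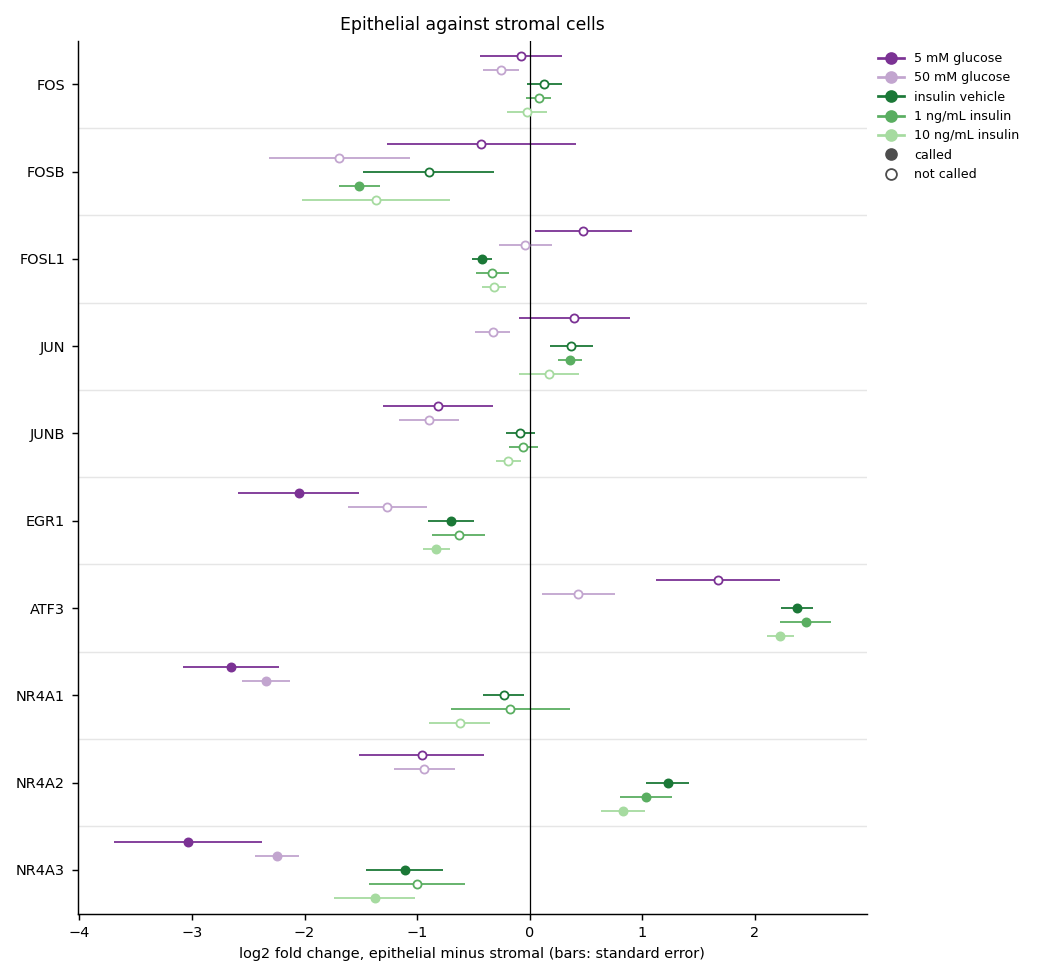
Log2 fold change between the cell types (epithelial minus stromal, with the standard error) for each gene in the 5 conditions. Filled points passed the adjusted test and open points did not. ATF3, JUN and NR4A2 lay above 0 in the 3 insulin groups, and NR4A2 lay below 0 in both glucose groups. EGR1, FOSB, JUNB, NR4A1 and NR4A3 lay below 0 in all 5 conditions, with open points among them.

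The glucose and insulin cultures were separate experiments, and whether they were sequenced together is not given in the sources used here, so levels are set side by side here and the difference was not tested. Stromal NR4A1 ranged from 138 to 344 CPM in the glucose experiment and from 28.0 to 42.8 CPM in the insulin experiment. Stromal NR4A3 ranged from 34.1 to 46.7 CPM and from 4.25 to 10.9 CPM, and stromal NR4A2 from 16.5 to 23.0 CPM and from 4.46 to 7.55 CPM. Every stromal glucose library was thus above every stromal insulin library for the 3 NR4A genes, and the same held for JUN (125 to 353 CPM against 63.5 to 109.7 CPM) and JUNB (248 to 716 CPM against 186 to 221 CPM). In epithelial cells, JUN alone was separated in this way, at 141 to 349 CPM against 82.6 to 130.2 CPM. Of 13363 genes, 5.75% had every glucose library above every insulin library in stromal cells and 3.24% in epithelial cells. Cells with 5 mM glucose and cells with vehicle received the same glucose concentration, and what separated them cannot be told apart from the experiment.

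The replicate number held a larger share of the variance than the concentration for most of the 10 genes. The variance of log2(CPM + 1) within a cell type and experiment was split into the part between replicate numbers, the part between concentrations and the rest. In epithelial insulin libraries, the replicate number held at least 83.1% of the variance for 8 of the 10 genes. NR4A3 reached 97.8%, FOSL1 96.6% and FOS 92.1%, compared with a median of 72.1% over 13363 genes. FOSB had 57.3% and NR4A2 had 10.9%. In stromal glucose libraries, FOSL1 had 97.3%, FOSB 94.2% and JUNB 92.2%, compared with a median of 64.6%, while FOS, JUN, ATF3 and NR4A1 had 38.1% to 47.5%. In stromal insulin libraries (median 58.7%), FOSL1, NR4A1, NR4A2 and NR4A3 had 67.0% to 90.6% and the other genes 6.30% to 57.3%. In epithelial glucose libraries (median 58.5%), FOSB, JUNB, ATF3 and NR4A3 had 27.4% to 42.9% and the other genes 62.7% to 73.9%. The genes were thus not above the median as a set. The concentration held more than the replicate number for NR4A2 in epithelial insulin libraries (51.7%) and for FOSB (53.6%) and ATF3 (52.7%) in epithelial glucose libraries. The same held for JUNB in stromal insulin libraries (23.6% against 6.30%), where the rest held 70.1%. The share of NR4A2 includes the epithelial vehicle and 10 ng/mL libraries whose contrast chose the set, so it is a description.

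The replicate with the extreme level was often the same across genes. In stromal glucose libraries, replicate 1 was the highest at both concentrations for FOSB (526 and 384 CPM, against 46.5 to 88.2 CPM in the other 4 libraries), for FOSL1 (179.7 and 157 CPM, against 42.8 to 64.6 CPM), for JUNB and for EGR1. Those replicate 1 libraries had epithelial markers at 7.24% and 14.1% of their epithelial level, and the part of this in the 4 genes was not tested. In epithelial insulin libraries, replicate 3 was the highest and replicate 2 the lowest at every concentration for NR4A1 and NR4A3. Stromal markers there were at 9.80% to 10.6% of their stromal level in replicate 3, at 3.47% to 4.24% in replicate 1 and at 1.38% to 1.76% in replicate 2, and their part was not tested.

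**Figure D3:**
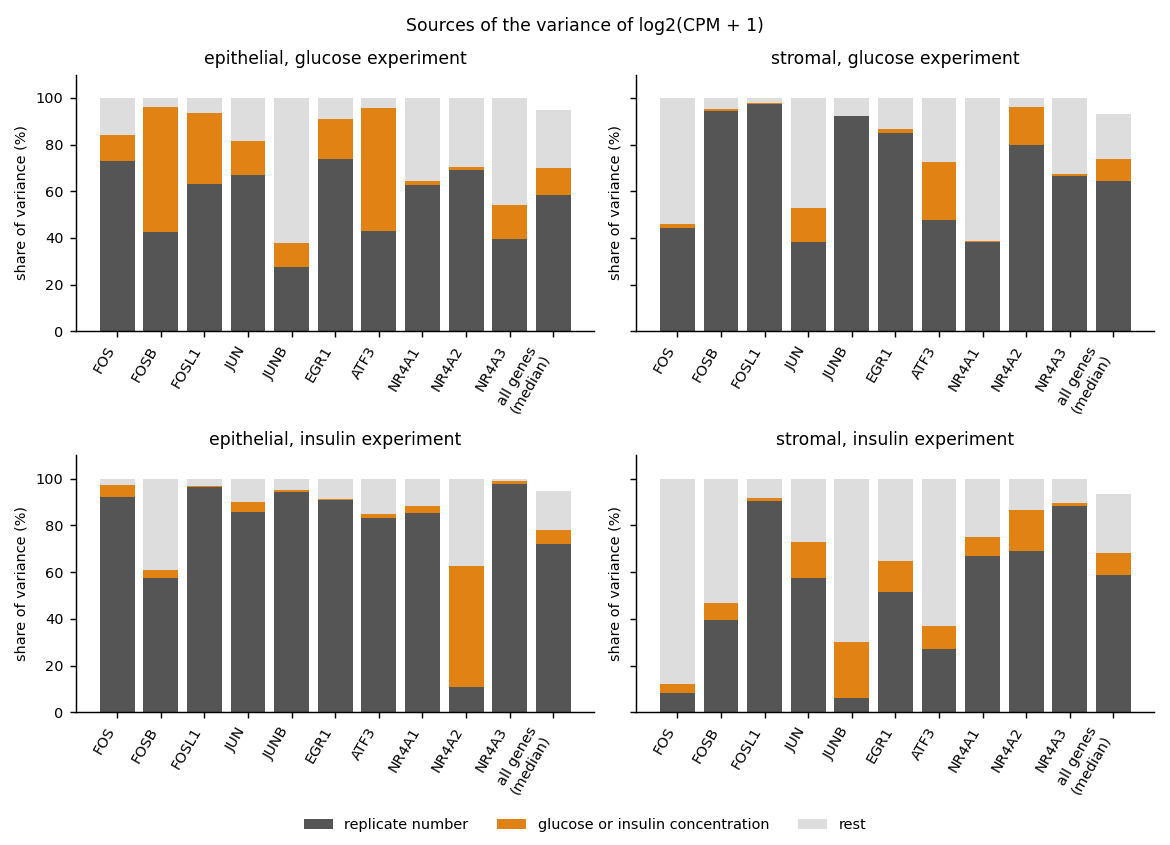
Share of the variance of log2(CPM + 1) held by the replicate number, by the glucose or insulin concentration and by the rest (%), for each gene within a cell type and experiment, with the median share over 13363 genes in the right bar, where the 3 medians need not sum to 100%. The shares are not corrected for the number of levels. The replicate number held most of the variance for most genes, and NR4A2 had 51.7% between concentrations in epithelial insulin libraries, which include those whose contrast chose the set.

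The second question was whether glucose altered these genes. None of the 10 was called between 50 mM and 5 mM in either cell type, and 0% of all genes were called in epithelial and 0% in stromal cells. At an unadjusted p under 0.05, the count was 1 of the 10 in epithelial and 0 of the 10 in stromal cells, and DESeq2 called 0 in both. Fold changes are 50 mM minus 5 mM. They ranged from -0.96 to 0.68 in epithelial cells (median -0.17, with 7 genes below 0 and 3 above) and from -0.19 to 0.86 in stromal cells (median -0.03), compared with medians of 0.01 and -0.03 over all genes.

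FOSB was the gene at the lower end in epithelial cells. It had 82.8, 63.1 and 154 CPM at 5 mM and 39.9, 41.5 and 66.0 CPM at 50 mM, lower at 50 mM in 3 of 3 pairs although the highest 50 mM library was above the lowest 5 mM library. The log2 fold change was -0.96 (SE 0.228, unadjusted p = 0.00642, adjusted p = 0.804). Without replicate 2, whose 5 mM library stood apart, it was -1.10 (SE 0.0940, adjusted p = 4.35e-05), in a fit of 2 pairs that called 1.59% of all genes and no other of the 10 genes. FOSL1, JUN and ATF3 were also lower at 50 mM in 3 of 3 epithelial pairs, at -0.50 (SE 0.229), -0.42 (SE 0.3) and -0.33 (SE 0.207), with an adjusted p of 0.804 for each. Without replicate 2 these values were -0.35 (adjusted p = 0.0998), -0.05 (adjusted p = 0.857) and -0.24 (adjusted p = 0.210). EGR1 had 0.64 (SE 0.280, adjusted p = 0.804), or 0.52 (adjusted p = 0.157) without replicate 2. Stromal markers summed to 5776, 3425 and 2129.9 CPM in these epithelial libraries at 5 mM and to 7762, 6677 and 3066 CPM at 50 mM, higher in 3 of 3 pairs. The median log2 fold change over 19 stromal markers was 0.71, with 0 called, and their part in these values was not tested.

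In stromal cells, FOSB had a fold change of 0.22 (SE 0.267, adjusted p = 0.778) between the glucose concentrations. The difference between the cell types in the effect of glucose was -1.18 for FOSB (SE 0.369, unadjusted p = 0.0135, adjusted p = 0.631) and -1.20 for ATF3 (SE 0.521, adjusted p = 0.663), epithelial minus stromal. Without replicate 2 they were -1.05 (adjusted p = 0.715) and -1.22 (adjusted p = 0.719), and without replicate 3 they were -1.05 and -0.71 (adjusted p = 0.809 for both). None of the 10 passed that test and DESeq2 called 0, while 1 of the 10 had an unadjusted p under 0.05. Of all genes, 0% were called. The largest stromal value was that of ATF3, 0.86 (SE 0.467, adjusted p = 0.696), which became 0.27 (SE 0.2, adjusted p = 0.838) without replicate 3, the pair that holds the library with high epithelial markers. NR4A1 in stromal cells turned from -0.14 (SE 0.390) to 0.38 (SE 0.106, adjusted p = 0.485) without that pair.

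**Figure D4:**
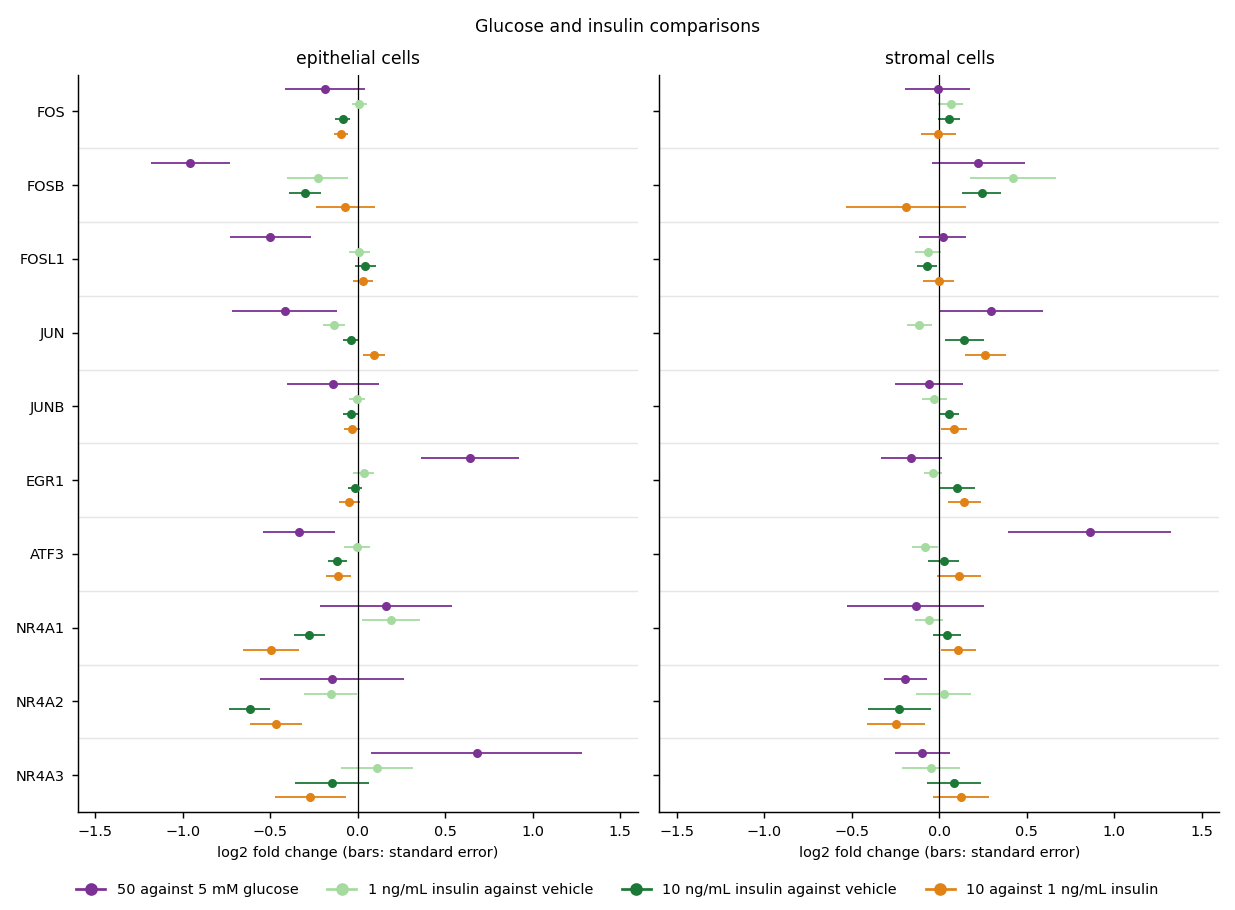
Log2 fold change (with the standard error) of each gene for 50 against 5 mM glucose and for the 3 insulin contrasts, in epithelial cells (left) and stromal cells (right). FOSB in epithelial cells with glucose (-0.96) and ATF3 in stromal cells with glucose (0.86) lie farthest from 0, and the fold changes of the insulin contrasts all lie between -0.62 and 0.42.

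The third question was whether insulin altered these genes. In the contrast that chose the set, 10 ng/mL insulin against vehicle in epithelial cells, NR4A2 had 13.2, 19.3 and 14.1 CPM with vehicle and 9.47, 10.9 and 9.97 CPM with 10 ng/mL. Every vehicle library was above every 10 ng/mL library, and the level was lower in 3 of 3 pairs. The mean was 15.5 ± 3.32 CPM (SD, n = 3) with vehicle and 10.1 ± 0.714 CPM (SD, n = 3) with 10 ng/mL, at a log2 fold change of -0.62 (SE 0.115). It was -0.49 without replicate 2, the replicate with the highest vehicle level. Of all genes, 0.124% were called in this contrast. The other 9 genes had log2 fold changes of -0.30 to 0.04, among them FOSB (-0.30, SE 0.0906), NR4A1 (-0.28, SE 0.0883), ATF3 (-0.12, SE 0.0532) and FOS (-0.09, SE 0.0403). NR4A1, FOS and JUN were lower in 3 of 3 pairs as well.

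The 1 ng/mL libraries lay between in the mean of NR4A2 but not in each replicate. They had 12.1, 11.2 and 18.9 CPM, so that replicate 2 was far below its vehicle level, replicate 1 was slightly below and replicate 3 was above. With 1 ng/mL against vehicle, NR4A2 had a log2 fold change of -0.15 (SE 0.150, adjusted p = 0.9996), and 10 against 1 ng/mL gave -0.47 (SE 0.149, unadjusted p = 0.00692, adjusted p = 0.983). Both contrasts share libraries with the one that chose the set and are no independent evidence on NR4A2. NR4A1 had 30.0, 19.1 and 47.3 CPM with vehicle, 29.7, 9.83 and 83.2 CPM with 1 ng/mL and 28.5, 11.4 and 40.6 CPM with 10 ng/mL. Its replicate 3 with 1 ng/mL was the highest of the 9 epithelial libraries. Between 10 and 1 ng/mL, NR4A1 had -0.50 (SE 0.161, unadjusted p = 0.00766, adjusted p = 0.983), which was 0.04 (adjusted p = 0.994) without replicate 3 and -0.73 (adjusted p = 1.73e-08) without replicate 1. The fits without replicates 3 and 1 rest on 2 pairs and called 0.109% and 0.244% of all genes. NR4A3 kept the order of the replicates at every concentration, at 4.16, 1.24 and 5.82 CPM with vehicle and 3.34, 1.02 and 5.88 CPM with 10 ng/mL.

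**Figure D5:**
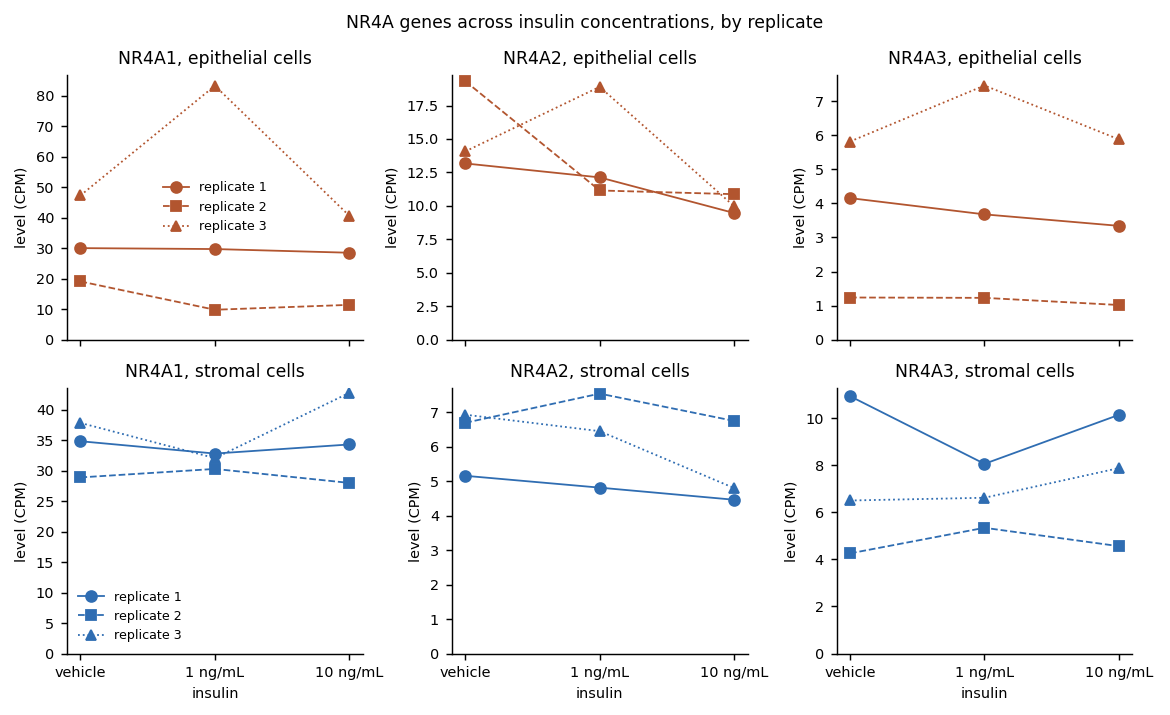
Levels of NR4A1, NR4A2 and NR4A3 (CPM) with vehicle, 1 ng/mL and 10 ng/mL insulin in epithelial cells (top) and stromal cells (bottom), with a line for each replicate number. Epithelial NR4A2 at 10 ng/mL (9.47 to 10.9 CPM) lies below all vehicle libraries (13.2 to 19.3 CPM), while the replicates of NR4A1 and NR4A3 in epithelial cells keep their order across concentrations.

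None of the 10 genes was called with 1 ng/mL insulin against vehicle or with 10 against 1 ng/mL in epithelial cells, where 0% and 0% of all genes were called. JUN (-0.13, SE 0.0620, unadjusted p = 0.0437, adjusted p = 0.9996) was the 1 gene with an unadjusted p under 0.05 in the first contrast, and FOS (-0.09, SE 0.0373, unadjusted p = 0.0226, adjusted p = 0.983) joined NR4A1 and NR4A2 in the second. DESeq2 called 0 in either contrast. With 2 pairs left, 1 ng/mL against vehicle called NR4A1 without replicate 2 (0.47, adjusted p = 0.000104) and FOSB without replicate 3 (-0.67, adjusted p = 2.16e-05). Those fits called 0.25% and 0.0462% of all genes.

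In stromal cells, none of the 10 genes was called in the 3 insulin contrasts, where 0.0157% (1 ng/mL against vehicle), 0% (10 ng/mL against vehicle) and 0.0313% (10 against 1 ng/mL) of all genes were called. DESeq2 called 0 as well, and the counts at an unadjusted p under 0.05 were 0, 0 and 1. That gene was JUN, with 0.26 (SE 0.116, unadjusted p = 0.0445, adjusted p = 0.9996) between 10 and 1 ng/mL. Stromal NR4A2 had 5.16, 6.70 and 6.93 CPM with vehicle, 4.82, 7.55 and 6.46 CPM with 1 ng/mL and 4.46, 6.75 and 4.80 CPM with 10 ng/mL. Its log2 fold change with 10 ng/mL against vehicle was -0.23 (SE 0.178, adjusted p = 0.999), lower in 2 of 3 pairs. The direction of FOSB differed between replicates. It had 43.9, 54.0 and 106 CPM with vehicle, 79.9, 116 and 63.6 CPM with 1 ng/mL and 40.7, 61.7 and 156 CPM with 10 ng/mL. With 1 ng/mL it was higher in replicates 1 and 2 and lower in replicate 3, at 0.42 overall (SE 0.244, adjusted p = 0.921), 1.02 without replicate 3 (adjusted p = 1.31e-12) and not called without either of the others. Between 10 and 1 ng/mL, FOSB had -0.97 without replicate 3 (adjusted p = 2.7e-21). JUNB (0.21, adjusted p = 0.0409) and EGR1 (0.31, adjusted p = 0.00390) were called without replicate 1. With all replicates these values were -0.19 (SE 0.341), 0.09 (SE 0.0742) and 0.14 (SE 0.0937). The fits of FOSB without replicate 3 leave out the pair that went the other way. P-values from 2 pairs do not measure the spread over 3 replicates. Of all genes, 0.578% (without replicate 3) and 0.515% (without replicate 1) were called for 10 against 1 ng/mL. The share was 0.804% for 1 ng/mL against vehicle without replicate 3.

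The effect of 1 ng/mL insulin did not pass the test of a difference between the cell types for any of the 10 genes, with 0 at an unadjusted p under 0.05 and 0 called by DESeq2, whereas 0.658% of all genes were called. FOSB had the largest difference, -0.63 (SE 0.415, adjusted p = 0.886), and -1.69 (adjusted p = 1.87e-05) without replicate 3. The latter fit rests on 2 pairs per cell type and called 1.13% of all genes. A p-value that misses the threshold does not show that the groups were alike: with 3 pairs, the SE in the glucose contrasts was 0.124 to 0.604.

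The genes that surround this set were listed by role. AP-1 partners (7 or 8 tested, such as FOSL2 and JUND), upstream regulators (12 or 13, such as SRF, ELK1 and CREB1), other immediate early genes (26 to 28), feedback inhibitors of ERK signalling (8 or 9 DUSP, SPRY and SPRED genes) and heat shock and stress genes (12) gave 0 calls in each of the 8 glucose and insulin contrasts. The median log2 fold change of the other immediate early genes in those contrasts lay between -0.04 and 0.22, compared with -0.03 to 0.01 over all genes. The medians were -0.45 to 0.07 for AP-1 partners, -0.07 to 0.08 for upstream regulators, -0.09 to 0.18 for feedback inhibitors and -0.06 to 0.15 for heat shock and stress genes. The lowest was that of the 8 AP-1 partners for glucose in epithelial cells, against 0.01 over all genes.

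Between the cell types, genes of the same lists were called in both directions. With vehicle, 8 of 27 other immediate early genes were higher and 5 lower in epithelial cells (median log2 0.34), as were 5 and 2 of 13 upstream regulators (median 0.28), compared with a median of 0.003 over all genes, of which 27.8% were called higher and 27.3% lower in epithelial cells. Of 7 AP-1 partners, 1 was higher and 2 were lower (median -0.27), and of 9 feedback inhibitors 4 were higher and 2 lower (median -0.01). DUSP4 and DUSP5, phosphatases that switch off MAP kinases, were higher in epithelial cells with vehicle, DUSP4 at 98.2 ± 23.8 against 1.67 ± 1.22 CPM (SD, n = 3; log2 5.83, SE 0.457, adjusted p = 0.00138) and DUSP5 at 255 ± 46.9 against 15.7 ± 6.64 CPM (log2 3.99, SE 0.224, adjusted p = 0.000936). PLK2, a kinase induced by serum, had 1275 ± 72 against 77.1 ± 25.8 CPM (log2 4.03, SE 0.220, adjusted p = 0.000914), and TNFAIP3, an inhibitor of NF-kB signalling, had 81.5 ± 8.24 against 6.15 ± 2.74 CPM (log2 3.71, SE 0.198, adjusted p = 0.000914). EGR3, a relative and target of EGR1, was lower in epithelial cells, at 3.98 ± 3.24 against 29.8 ± 9.17 CPM (log2 -3.08, SE 0.677, adjusted p = 0.0172), the direction that EGR1 itself had. The list of 28 other immediate early genes had 2 higher and 5 lower at 5 mM glucose (median -0.14) and 1 higher and 7 lower at 50 mM (median -0.46), against 10.5% higher and 10.6% lower of all genes at 5 mM and 6.39% and 10.9% at 50 mM. Without replicate 2, the 5 mM numbers were 5 and 7 (median -0.32), where 11.6% and 12.1% of all genes were called. Without replicate 1 they were 3 and 5, where 11.7% and 11.1% were called, and the median turned to 0.25. Without replicate 3 they were 3 and 4 (median -0.20), where 8.15% and 8.05% were called. Without replicate 3, the 50 mM numbers were 5 and 11 (median -0.53), where 13% and 14.8% were called, and without replicate 1 they were 0 and 0, where 0% were called. At 5 mM glucose, DUSP4 was again higher in epithelial cells, at 63.8 ± 0.845 against 3.74 ± 4.17 CPM (log2 4.47, SE 0.731, adjusted p = 0.0111). DUSP5 was higher there as well (log2 2.95, SE 0.515, adjusted p = 0.0133), and both calls held with any 1 replicate left out. In the full fits at 5 mM and 50 mM, EGR3 had -3.85 (SE 0.392, adjusted p = 0.00543) and -2.79 (SE 0.311, adjusted p = 0.00562). KLF2, a flow-responsive factor of vascular cells, had -3.30 (SE 0.402, adjusted p = 0.00591) and -2.69 (SE 0.257, adjusted p = 0.00355). PTGS2, which makes prostaglandins and is an immediate early gene, had 114 ± 49.0 CPM in epithelial and 459.8 ± 324 CPM in stromal cells at 50 mM (-2.04, SE 0.338, adjusted p = 0.0189). Without replicate 2, the 5 mM values were -3.76 (adjusted p = 0.0127) for EGR3 and -3.13 (adjusted p = 0.0131) for KLF2. Without replicate 3, the 50 mM values were -2.75 (adjusted p = 0.00998) for EGR3, -2.84 (adjusted p = 0.00459) for KLF2 and -2.42 (adjusted p = 0.00701) for PTGS2. The 50 mM calls of EGR3, KLF2 and PTGS2 were lost without replicate 1 (adjusted p = 0.0679, 0.0525 and 0.106).

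Heat shock and stress genes, which hold chaperones such as HSPA8 and the DNA damage factors of the GADD45 family, were called in both directions between the cell types, 1 higher and 4 lower of 12 with vehicle (median 0.03) and 1 and 1 of 12 at each glucose concentration (medians 0.11 and -0.11), beside the same shares of all genes. Their part in the levels of the 10 genes was not tested.

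Levels of log2(CPM + 1) centred within cell type and experiment were correlated across the 30 libraries as a description. Libraries of one replicate number deviated together within a cell type, and whether they came from one cow is not given. NR4A1 and NR4A3 were the most alike pair of the set over all 30 libraries (Pearson's r = 0.763). The pair had r = 0.949 in the 9 epithelial insulin libraries and 0.696 in epithelial glucose libraries. In stromal libraries it had 0.618 in the insulin and 0.0121 in the glucose experiment. Over all libraries, NR4A2 followed neither, at r = 0.331 with NR4A1 and 0.355 with NR4A3. With NR4A3 it ranged from -0.815 in stromal insulin to 0.844 in epithelial glucose libraries. FOS was most like JUN (r = 0.579) and opposite to NR4A1 (r = -0.567) over all libraries. With NR4A1, FOS had -0.829 and -0.809 in epithelial glucose and insulin libraries, but -0.0479 and 0.197 in stromal ones. Among 13353 other genes, the pattern of FOS was most like those of MACROD1 (r = 0.770), ENSBTAG00000050205 (0.743), TNS3 (0.734), ZNF692 (0.717) and PYCARD (0.717), and that of NR4A2 was most like those of RAD1 (r = 0.802), PLEKHA3 (0.774), RPS6KB1 (0.772), NABP1 (0.756) and PIGA (0.750). None of these 10 genes belongs to the immediate early lists.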

How the data were processed

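Counts of 75 bp single-end reads per gene were used as deposited. Per the methods, Cutadapt and FASTX-Toolkit cleaned the reads, Rsubread placed them on the Ensembl cow genome, and featureCounts summed the uniquely mapped ones per gene. Its strand setting is not given in the sources used here. The deposited counts were not normalized. The authors' DESeq2 tables of fold changes and p-values were read for gene names only. The 10 genes, the pathway lists and the tests were chosen with earlier results of these data known. Each comparison was fitted with edgeR 4.0.16 (TMM, filterByExpr, quasi-likelihood test) on its 6 libraries, or on 12 for differences between the cell types, with the replicate number as a block, since the study used a paired design. In all 24 same-numbered pairs of libraries of 1 cell type, the deviations from the group means correlated by more than 0.1 (r = 0.198 to 0.860). Across the cell types, 33 of 39 such pairs were over 0.1 (lowest r = 0.0327), and 2 of the 3 pairs at 5 mM glucose were under it. The sources used here do not say which epithelial and stromal libraries came from the same device. The pairing of the cell types by replicate number is therefore an assumption. P-values were adjusted over all genes tested. CPM used the summed counts of a library. A count of 0 allows up to 3 reads, for counting error only, and no member was at 0. All 10 genes are named, with fold change, SE and p for those with an unadjusted p under 0.05, and from the pathway lists at most 5 called genes per comparison with the largest fold change; other values in the text were chosen after they were seen. DESeq2 1.42.0, other size factors, no filter, no block, a fit of all 9 libraries of a cell type and leaving out each replicate were tried. Sequences, gene lengths and coordinates were not used here, so levels are not compared between genes.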

Additional observations from a re-analysis of the deposited data

How the results depend on the processing

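Other size factors moved no number of called genes among the 10 by over 1.5 times. Over all settings, 24 such numbers moved and 87 did not. The contrast that chose the set was 10 ng/mL insulin against vehicle in epithelial cells. Its number of genes past the threshold is a description from which nothing is read. That number was 1 in the full fit, where 0.124% of all genes passed. It was 0 without the replicate block, 0 with DESeq2, 0 with all 9 libraries of the cell type and 2 without the low-count filter. With 1 replicate left out it was 0 to 3, where 0.102% to 0.591% of all genes passed. Without the filter, 1 gene was called for 10 against 1 ng/mL in epithelial cells (NR4A1, -0.50) and 1 for the difference between the cell types in the effect of 1 ng/mL (FOSB). Between the cell types, the vehicle number of 5 was 3 without the replicate block and 2 to 4 with 1 replicate left out (38.6% to 42.7% of all genes called), that of 10 ng/mL (4) was 2 to 3 (36.8% to 45.6%), and that of 50 mM glucose (2) was 6 with DESeq2 and 0 to 5 (0%, 14.4% and 27.8% of all genes were called without replicates 1, 2 and 3). The shares of all genes called with DESeq2 and without the block are not given here, so the numbers of those settings are not read. Leaving out 1 replicate gave 0 to 1 genes for glucose in epithelial cells, for 1 ng/mL against vehicle in either cell type, for 10 against 1 ng/mL in epithelial cells and for the difference in the effect of 1 ng/mL, and 0 to 2 for 10 against 1 ng/mL in stromal cells, each with 0 in the full fit. Such fits rest on 2 pairs and called 0% to 1.59% of all genes. The direction of NR4A1 for 10 against 1 ng/mL in epithelial cells turned without replicate 3 (0.036), with -0.73 as the lowest value over these fits. Without the replicate block, the calls between the cell types of FOSL1 (-0.44) and NR4A3 (-1.02) with vehicle, JUN (0.36) with 1 ng/mL and NR4A3 with 10 ng/mL were lost, FOSB was called with 10 ng/mL, and outside the contrast that chose the set no other call of the 10 genes changed. The causes were not tested. TMM-scaled totals moved 4 group means by more than 1 SD.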
